A study of Mus musculus with 22 samples.

Results

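The comparison described here was between the 6 double positive libraries (TdTOSX+;CD45+, 3 wild type and 3 Cdh2-cKO) and the 6 CD45 single positive libraries (TdTOSX-;CD45+, 3 wild type and 3 Cdh2-cKO), 12 of the 22 bulk RNA sequencing libraries of the series. The libraries were chosen by the population and genotype in their titles, and no measured value entered the choice. Cells came from the stroma of PyMT-BO1 mammary carcinoma tumors (MMTV-BO1 in the sample labels) grown in C57BL/6 mice whose age is given as postnatal day 56, and were sorted into 4 populations by TdTomato and CD45. The labels call the tumors orthotopic and the study design calls them subcutaneous. All mice carried Osx-cre, a transgene in which regulatory sequence of Sp7 drives a doxycycline-repressible Cre, and the Ai9 reporter at the Gt(ROSA)26Sor locus. Mice labelled wild type were Osx-cre;Ai9 (4 inoculated), so the control genotype also expressed Cre. Cdh2-cKO;Ai9 mice (6 inoculated) lacked Cdh2, which encodes the adhesion molecule N-cadherin, only in cells that had expressed Osx-cre. The sources do not say which library came from which mouse, nor whether a library was a pool of mice, so that p-values measure the spread between these libraries.

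Osterix, the product of Sp7, is a zinc finger transcription factor required for osteoblast differentiation. Once Cre has removed the stop cassette of Ai9, a cell and all its progeny remain TdTomato positive, so that the label records past Osx-cre activity and not present Sp7 transcription. CD45, encoded by Ptprc, is the surface phosphatase shared by nucleated hematopoietic cells, and in a tumor the CD45+ stroma holds macrophages, monocytes, dendritic cells and lymphocytes. The comparison asks which transcripts separate the labelled from the unlabelled immune cells of these tumors.

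The 12 libraries held 17267392 to 23228544 counts each, and 3 counts, taken as the limit of detection, corresponded to 0.132 to 0.180 normalized CPM (CPM, the count of a gene relative to the library's total, here with the total scaled by TMM to correct for differences in composition). Ptprc was abundant in every library, with 428 to 641 normalized CPM in the double positive group and 434 to 1523 in the CD45 single positive group. The most abundant transcripts per length included those of macrophages and antigen presenting cells beside genes of all cells such as Actb and Fth1. Cd74, the invariant chain of MHC class II, stood at a median of 22740 RPKM in double positive and 20400 in CD45 single positive libraries. The lysozyme gene Lyz2 stood at 15580 and 15230, the secreted phosphoprotein Spp1 at 10460 and 10900, and the complement gene C1qb at 5712 and 5698 RPKM. The 10 most abundant protein coding genes by median RPKM were the same in both populations, and 46 of the top 50 were shared. Sp7 itself had no count in the 6 double positive libraries and 1 count in the CD45 single positive libraries. Runx2, which acts upstream of Sp7 in osteoblasts and which T cells and macrophages also transcribe, was measured at 12.4 to 21.8 normalized CPM in double positive and 7.93 to 28.4 in CD45 single positive libraries.

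Cdh2, the gene targeted in the cKO mice, was close to the limit of detection in all CD45+ libraries. In double positive cells it was at 0.643, 0.324 and 0.388 normalized CPM in the 3 wild type libraries and at 0.552, 0 and 0.373 in the 3 cKO libraries. In CD45 single positive cells it was at 0.329, 1.29 and 0.436 in wild type and at 0.356, 2.47 and 0.683 in cKO. At these levels the 2 genotypes overlapped and Cdh2 could not serve as a check of the genotype labels. The related cadherin gene Cdh11 was at 0.339 to 1.12 normalized CPM in double positive and 0.384 to 1.78 in CD45 single positive libraries.

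CD45 single positive wild type replicate 2 stood apart from the other 11 libraries. On the first principal component of log2 CPM, which held 43.0% of the variance, it lay at 135 while the others lay between -32.5 and 30.3. It had the highest value of the 12 libraries for 28.5% of the genes tested. Its Ptprc level of 1523 normalized CPM compared with 434 to 511 in the other CD45 single positive libraries. Cd3e, a chain of the T cell receptor complex, was at 430 against 1.42 to 13.9 in those 5 libraries. The B cell factor gene Ebf1 was at 176 against 0.438 to 1.94, whereas Adgre1, which encodes the macrophage antigen F4/80, was at 357 against 707 to 1093. Results are therefore given with and without this library.

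Across the 12 libraries, with genotype as a covariate, 12926 genes were tested and 1 was called higher in double positive cells, which is 0.00774% of the genes tested. No gene was called lower by edgeR or by DESeq2 or limma, and 370 genes (2.86%) had an unadjusted edgeR p below the threshold of 0.05. Leaving out CD45 single positive wild type replicate 2 gave the same single call among 12642 genes (0.00791%), again with 0 genes lower, and 576 genes (4.56%) at an unadjusted p below 0.05. The 6 double positive libraries all exceeded the 6 CD45 single positive libraries in 7 genes (0.0542% of those tested) and all lay below them in 1 gene (0.00774%). The latter, named here after its values were seen, was the cyclin-like gene Ccnyl1, at a mean of 1.63 normalized CPM.

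The absence of other calls can be read against the width of the intervals. For 9795 of the 12926 genes (75.8%) the 95% interval of the difference lay within 1 log2 unit of 0, and among the 7645 genes with a mean of at least 10 normalized CPM it did so for 92.1%. The median standard error was 0.23 log2 units over all genes and 0.18 in those more abundant genes. Differences larger than 2-fold were therefore outside the interval of most abundant genes, while the wider intervals of the other genes included differences of that size.

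**Figure D1:**
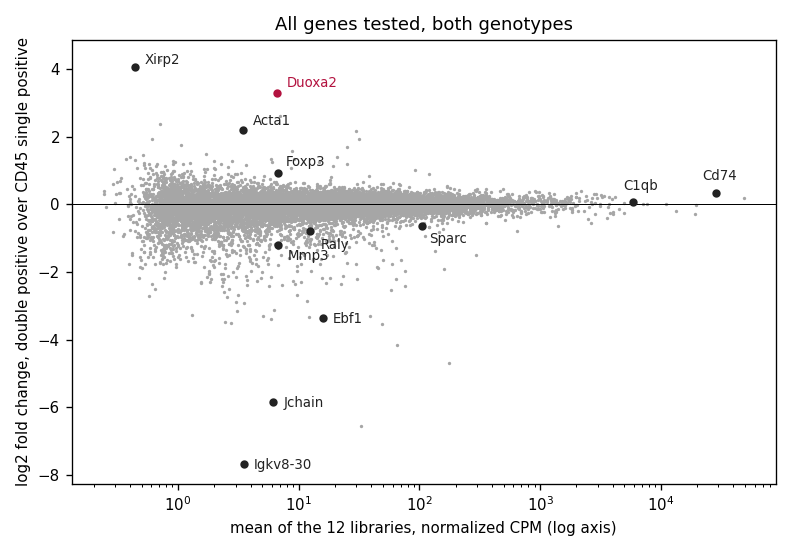
Log2 fold change of double positive over CD45 single positive cells for each of the 12926 genes tested, both genotypes together, against the mean of the 12 libraries in normalized CPM (log axis). Duoxa2, in red, was the only gene called, and the named genes in black, among them the abundant Cd74 and C1qb near 0, were not.

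The gene called in double positive cells was Duoxa2 (ENSMUSG00000027225, GRCm38 chr2:122298900-122302885, plus strand). It encodes dual oxidase maturation factor 2, an endoplasmic reticulum protein that the oxidase DUOX2 needs to leave that compartment and to release hydrogen peroxide at the cell surface. The system is best known from thyroid follicles and mucosal epithelium. The 250 bases before its annotated start, as RefSeq gives them on GRCm38.p6, are shown because Duoxa2 carried the comparison. Osterix is classed with the SP family, several members of which bind GC boxes. Whether Osterix itself binds such boxes was not tested. Capitals mark the GC box letters GGGCGG or CCGCCC.
Duoxa2, chr2:122298650-122298899, plus strand: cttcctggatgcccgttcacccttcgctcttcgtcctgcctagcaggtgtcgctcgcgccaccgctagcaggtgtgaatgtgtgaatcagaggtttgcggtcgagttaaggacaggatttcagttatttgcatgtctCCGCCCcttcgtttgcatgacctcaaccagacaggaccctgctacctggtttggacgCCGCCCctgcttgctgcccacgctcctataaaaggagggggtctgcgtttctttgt
The window held 2 such boxes and the letters TATAAA starting 30 bases before the start site. Of 32851 RefSeq promoter windows of the same length, 32.7% held at least 1 GC box on either strand, 16.7% held 2 or more and 7.59% held TATAAA. These are letter matches and were not measured as binding.

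In double positive cells Duoxa2 was at 19.7, 7.35 and 8.38 normalized CPM in the 3 wild type libraries and at 14.8, 11.3 and 10.8 in the 3 cKO libraries. In CD45 single positive cells it was at 1.92, 0.479 and 1.454 in wild type and at 1.17, 1.26 and 1.14 in cKO. All 6 double positive libraries lay above all 6 CD45 single positive libraries, and the lowest of the former exceeded the highest of the latter by a wide margin. The means were 12.05 ± 4.54 (SD, n = 6) and 1.24 ± 0.469 normalized CPM (SD, n = 6), resting on 1430 and 139 counts in all. The difference was 3.28 ± 0.34 log2 units (SE), or 9.72-fold, with a 95% interval of 2.55 to 4.01 and an adjusted p of 0.00391 in edgeR's quasi-likelihood test. Without CD45 single positive wild type replicate 2, the library with the lowest Duoxa2 level, it was 3.11 ± 0.29 with an adjusted p of 0.00121.

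The Duoxa2 difference was measured in each genotype. In wild type it was 3.20 ± 0.50 log2 units, with group means of 11.8 ± 6.83 and 1.28 ± 0.734 normalized CPM (SD, n = 3 each in an edgeR model across all genes). In Cdh2-cKO it was 3.36 ± 0.50, with means of 12.3 ± 2.17 and 1.19 ± 0.0649. Neither passed the adjusted threshold in edgeR with 3 libraries a side (adjusted p = 0.462 in wild type and 0.321 in cKO, unadjusted p = 3.58e-05 and 2.48e-05). Both passed in DESeq2, with adjusted p = 7.21e-07 and 1.31e-07. The change of the difference from wild type to cKO was 0.16 log2 units with a 95% interval of -1.28 to 1.61. Changes inside that interval were not excluded.

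**Figure D2:**
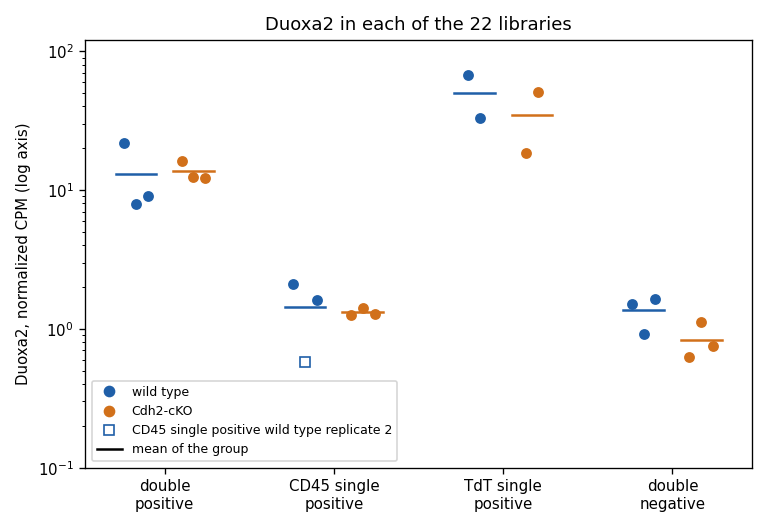
Duoxa2 in normalized CPM (log axis) in each of the 22 libraries, scaled together, by population and genotype. Points are libraries, bars are group means, and the open square is CD45 single positive wild type replicate 2. The double positive libraries lay between 7.96 and 21.8, all above the CD45 single positive libraries at 0.573 to 2.11.

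The other genes of the DUOX locus on chromosome 2 had few counts. Duox2, the oxidase gene that faces Duoxa2 head to head, had 4 counts over the 6 double positive libraries and 7 over the 6 CD45 single positive libraries. Duox1 had 6 and 2 counts, and Duoxa1, the maturation factor gene paired with it, had 20 and 12. All 3 fell below the filter and were not tested. Duoxa1 overlaps the end of Duoxa2 on the opposite strand, and reads were counted without strand. Per the methods only unambiguous reads were counted, so that reads within the overlap would count for neither gene. The Duoxa1 counts therefore do not measure the overlap, and its effect on the Duoxa2 counts was not tested.

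Duoxa2 separated TdTomato positive from negative cells outside the CD45+ gate too. With all 22 libraries scaled together, the 4 TdT single positive libraries held 18.4 to 67.1 normalized CPM and the 6 double negative libraries 0.631 to 1.65. The difference there was 5.28 ± 0.40 log2 units (edgeR adjusted p = 3.33e-06), in a comparison in which 1.23% of 15018 genes were called higher, 0.659% lower and 19% had an unadjusted p below 0.05. The 2 differences themselves differed by -2.01 ± 0.51 log2 units (CD45+ minus CD45-, 95% interval -3.08 to -0.94, unadjusted p = 0.000995), which did not pass adjustment over all genes (edgeR adjusted p = 0.378). The level in CD45 single positive cells (0.573 to 2.11) overlapped that in double negative cells.

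In edgeR only Mrps34, which encodes a protein of the mitochondrial ribosome, passed the test of a TdT difference that differs between CD45+ and CD45- cells. That was 1 gene lower (0.00666%) and 0 higher, and 1431 genes (9.53%) had an unadjusted edgeR p below 0.05. DESeq2 called 46 genes and limma 3. In CD45+ cells Mrps34 was at 7.78 to 11.5 normalized CPM in double positive and 4.36 to 10.8 in CD45 single positive libraries, which overlapped. In CD45- cells it was at 6.48 to 10.2 in TdT single positive and 0.256 to 1.75 in double negative libraries. The difference of the differences was -3.09 ± 0.41 log2 units with an edgeR adjusted p of 0.00965. The next genes by p were Pigx, a subunit of the enzyme that starts the GPI anchor (-1.26 ± 0.24), and Fam53a (-1.23 ± 0.24), with an edgeR adjusted p of 0.269 each.

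In edgeR no gene was called within wild type or within cKO alone (0% in either direction), while Duoxa2 was called by DESeq2 in both genotypes and by limma in cKO. No gene was called by edgeR, DESeq2 or limma for a difference between the 2 genotypes' contrasts, and 562 genes (4.35%) had an unadjusted edgeR p below 0.05. The 3 genes with the smallest p were Fbrs, Apol7c and Rbm38, each at an edgeR adjusted p of 0.878. Rbm38, an RNA-binding protein gene induced by p53, was at 2.52 to 3.46 normalized CPM in wild type and 2.11 to 3.47 in cKO double positive libraries. It was at 0.965, 0.963 and 0.911 in the CD45 single positive cKO libraries and at 2.85, 14.04 and 4.12 in the wild type ones. Its difference was 1.56 log2 units in cKO and -1.19 in wild type. Apol7c rested on a single cKO double positive library at 23.9, with the other 5 double positive libraries at or below 0.803. Fbrs differed by 0.69 in cKO and -0.55 in wild type. In cKO alone 646 genes (5%) had an unadjusted p below 0.05 and in wild type alone 370 (2.86%).

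The direction of T cell genes depended on CD45 single positive wild type replicate 2. All 25 members of the list of T cell receptor and proximal signaling genes were tested. In the 12 libraries 1 of 25 had a positive log2 difference (median -0.92), and without that library 25 of 25 did (median 1.21), where 47% and 52.5% of all genes tested were positive and the medians over all genes were -0.02 and 0.01. None of the 25 was called in either fit. Without that library 2, Cd4 and the adhesion gene Cd2, had an unadjusted edgeR p below 0.05 (4.56% of all genes tested). Cd3e was at 8.30, 32.98 and 82.3 normalized CPM in wild type double positive and at 10.2, 5.38 and 3.73 in cKO double positive libraries. Within cKO alone, where that library plays no part in the means, 10 of 25 were positive with a median of -0.06. Within wild type without that library, 3 libraries against 2, 25 of 25 were positive with a median of 3.19, 20 of them at an unadjusted p below 0.05 (3.31% of 12642 genes tested) and 0 called. The high values were thus those of double positive wild type replicates 2 and 3, and the cKO libraries of both populations overlapped. The sum of this list was led by the adaptor Lcp2, which myeloid cells also transcribe and which made up 72.5% of it at the median library. In bulk RNA a larger number of cells of a type and more RNA per cell cannot be told apart.

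Cd4 turned in direction with that library, while most regulatory T cell genes were positive with and without it. Cd4 was at 2.67 to 19.96 normalized CPM in double positive libraries and at 1.59 to 3.73 in CD45 single positive libraries other than wild type replicate 2, where it was 123. Its difference was -0.59 ± 0.85 log2 units in the 12 libraries and 1.32 without that library (unadjusted p = 0.00182, edgeR adjusted p = 0.898). Foxp3, the lineage factor of regulatory T cells, was at 5.09, 13.7 and 31.5 in wild type double positive libraries and 1.96, 1.06 and 1.71 in cKO. In CD45 single positive libraries it was at 1.04, 20.8 and 0.97 in wild type and 1.88, 0.481 and 0.513 in cKO. Its difference was 0.94 ± 0.73 log2 units with all libraries and 2.20 without wild type replicate 2, and neither was called. Ikzf4, which encodes the factor Eos, had a difference of 1.10 and 1.94, Il2ra, the high affinity receptor chain for IL-2, 0.63 and 1.33, and Tnfrsf4, which encodes OX40, 0.84 and 1.66. Of the 17 regulatory T cell genes tested 15 were positive in either fit, with medians of 0.21 and 1.17. Of all genes tested 47% and 52.5% were positive in these fits. Without that library 6 of the 17 had an unadjusted edgeR p below 0.05 (4.56% of all genes tested) and 0 were called. Within wild type alone without it the median was 2.45. There 12 of 17 were at an unadjusted edgeR p below 0.05 (3.31% of all genes tested) and 0 called. Within cKO the median was 0.15.

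The summed level of checkpoint receptor genes was also highest in that library. Ctla4, an inhibitory receptor of T cells, ranged from 2.77 to 62.1 normalized CPM in double positive cells and from 0.285 to 6.91 in CD45 single positive cells outside wild type replicate 2, where it was 103. Pdcd1, which encodes PD-1, ranged from 2.35 to 30.04 and from 0.513 to 5.33, with 69.6 in that library. The lowest double positive libraries overlapped the other population for both genes. Of 20 checkpoint and costimulatory receptor genes 10 were positive in 12 libraries (median -0.09) and 18 in 11 libraries (median 1.16). Of all genes tested 47% and 52.5% were positive. In 11 libraries 5 of the 20 were at an unadjusted edgeR p below 0.05 (4.56% of all genes tested), and none was called in either fit. The median was 0.13 within cKO and 2.80 within wild type without that library. In the latter 13 of 20 were at an unadjusted edgeR p below 0.05 (3.31% of all genes tested). Genes of their ligands had medians of 0.06 and 0.13.

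Cytotoxic and NK cell genes had a negative difference in all 22 tested members with the 12 libraries (median -1.27), and a positive one in 15 of 18 without wild type replicate 2 (median 0.44). The median was 2.25 within wild type without that library and -0.93 within cKO. Ncr1, which encodes the NK receptor NKp46, was at 0.0534 to 14.4 normalized CPM in double positive cells and at 0.057 to 4.32 in the other CD45 single positive libraries, against 53.1 in that library. Cd8a reached 14.7 and 2.39 in these groups, and 103. Klrg1, a receptor of differentiated lymphocytes, was at 0.587 to 42.8 in double positive cells and 0.683 to 26.2 in CD45 single positive cells. The lymphotoxin gene Ltb was at 0.587 to 14.7 and 0.114 to 27.5. Cd163l1 and Tcrg-C1, genes of gamma-delta T cells, were at most at 6.78 normalized CPM in the 12 libraries, with differences of -0.22 ± 1.25 and -0.12 ± 1.10 log2 units that turned to 1.17 and 1.445 without wild type replicate 2 and to 3.24 and 2.32 with limma. Of the gamma-delta and type 17 list 0 of 12 were positive with that library and 4 of 6 without it, where the other members fell below the filter. Within wild type without that library 5 of 6 were positive (median 3.04). There 4 had an unadjusted edgeR p below 0.05 (3.31% of all genes tested) and 0 were called. Within cKO 1 of 12 was positive (median -0.87). Spock2, an extracellular proteoglycan gene, was at 0.0502 to 1.07 in double positive cells and 0 to 1.49 in CD45 single positive cells. Wdr78 was at 0.309 to 0.964 and 0 to 1.68 and fell below the filter. The CD45 single positive ranges of Klrg1, Ltb, Spock2 and Wdr78 take in wild type replicate 2. With 1 library left out at a time, the log2 difference spanned -0.072 to 1.07 for Klrg1, -0.50 to 1.5 for Ltb and 0.33 to 2.84 for Spock2. None of these genes was called with or without wild type replicate 2.

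B cell genes separated a single library from all others. The B cell list summed to 209 to 296 normalized CPM in double positive libraries, to 197 to 257 in the other CD45 single positive libraries and to 6803 in wild type replicate 2. All 9 tested members were negative with that library (median -1.92) and 7 of 9 positive without it (median 0.23). Cd22, a B cell lectin, was at 3.46 to 11.99 in double positive cells, 6.20 to 13.2 in the 5 other libraries and 279 in replicate 2. The antibody genes Jchain, Igha and Igkv8-30 were, with Mmp3 and Lox, the 5 genes of smallest p in the negative direction, and none was called. Jchain was at 0 to 0.824 normalized CPM in double positive cells and at 3.23, 68.2 and 0.339 in wild type CD45 single positive cells. Igkv8-30, of a multigene family in which reads can be split among copies, reached 40.3 in wild type replicate 2 and at most 1.21 elsewhere. Igha was at 22.8 in wild type replicate 2 and 7.45 in wild type replicate 1, and its difference was -2.90 ± 0.79 with and -2.08 without replicate 2, neither of them called. Siglech, a receptor gene of plasmacytoid dendritic cells, was at 21.4 in that library and at or below 2.62 in the rest.

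**Figure D3:**
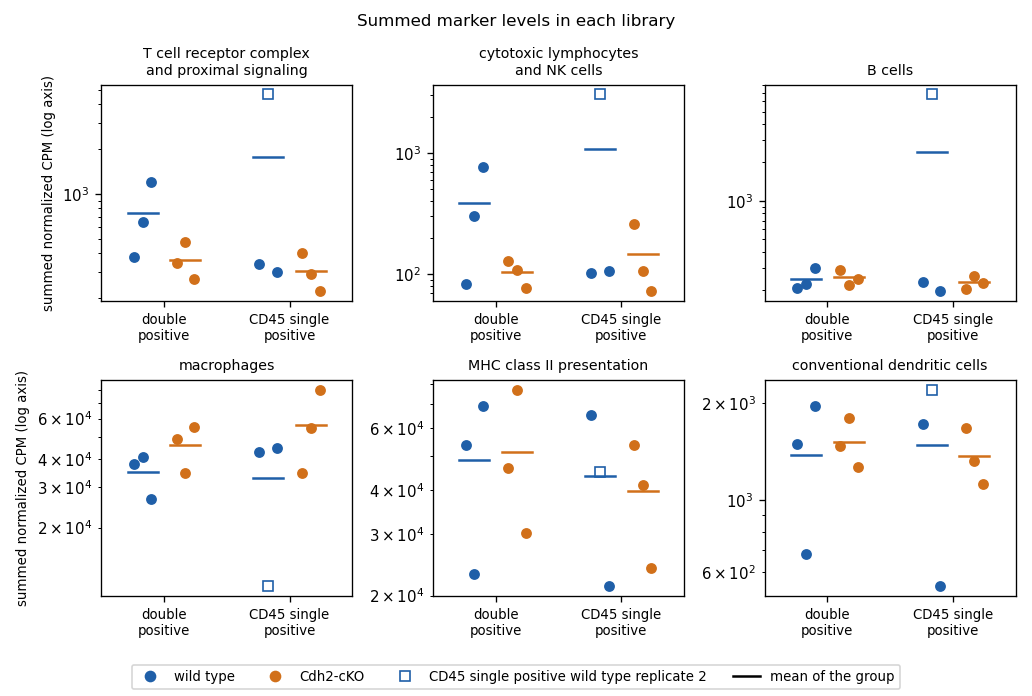
Summed normalized CPM (log axis) of 6 gene lists in each of the 12 libraries, by population and genotype. Bars are group means, and the open square is CD45 single positive wild type replicate 2, which lay above every other library for T cell, cytotoxic and B cell genes and below every other library for macrophage genes.

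Macrophage genes were abundant in both populations, and none of them was called. Their 24 genes summed to 26676 to 54876 normalized CPM in double positive libraries and to 34673 to 80176 in CD45 single positive libraries other than wild type replicate 2, where the sum was 11053. Of 23 tested members 14 were positive in 12 libraries (median 0.09) and 8 in 11 (median -0.08). Within wild type without replicate 2, 1 of 23 was positive (median -0.24), and within cKO 12 of 23 were (median 0.0025). Adgre1 was at 651 to 1201 normalized CPM in double positive cells, with a difference of 0.15 ± 0.24 and a 95% interval that contained 0. Csf1r, the receptor for macrophage colony stimulating factor, was at 796 to 1241 in double positive cells and 654 to 1124 in the other group without replicate 2. Without wild type replicate 2 the Adgre1 difference was -0.01 and that of C1qb -0.135. In the 12 libraries C1qb differed by 0.08 ± 0.35 and Lyz2 by -0.02 ± 0.43 log2 units. Arg1, the arginase of tumor macrophages, differed by -0.26 ± 0.19 and the mannose receptor gene Mrc1 by -0.14 ± 0.22. Spp1 spanned 6092 to 27610 in double positive and 4137 to 50810 in CD45 single positive cells, a spread within each population far above the difference between them (-0.28 ± 0.47).

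Monocyte, neutrophil and conventional dendritic cell lists had medians of -0.07, -0.24 and 0.05 log2 units in the 12 libraries, and of -0.05, 0.43 and 0.28 without wild type replicate 2. MHC class II genes ranged from 23079 to 77085 normalized CPM in double positive cells and from 21246 to 65267 in CD45 single positive cells when summed, with Cd74 making up 64.1% at the median library. Of 11 tested 7 were positive (median 0.23), and 10 without wild type replicate 2 (median 0.30). H2-Aa, a class II alpha chain, was at 1923 to 6786 and 1731 to 6080. Each population thus held both high and low libraries, and none of the genes was called. Plasmacytoid dendritic cell genes had a median of -0.33 and eosinophil genes of -1.17, or -0.12 and 0.15 without wild type replicate 2, and chemokine ligands and receptors medians of -0.13 and -0.35, or 0.05 and 0.10 without it. MHC class I genes (median 0.02), interferon-stimulated genes (-0.21), hypoxia and glycolysis genes (0.01) and lipid and lysosome genes (0.02) had no member called.

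Proliferation genes had a positive difference in 29 of 30 members with the 12 libraries (median 0.24), and in 23 of 30 without wild type replicate 2 (median 0.08). That library summed to 990 normalized CPM over the list and the others to 2075 to 2620. Immediate early and heat shock genes were positive in 14 of 20 (median 0.16) and 17 of 20 (median 0.17). Fos was at 974 to 2384 in double positive and 782 to 1879 in CD45 single positive cells. The inducible chaperone gene Hspa1a was at 26.7 to 33.99 and 18.5 to 27.1, a difference of 0.34 ± 0.13 that was not called.

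**Figure D4:**
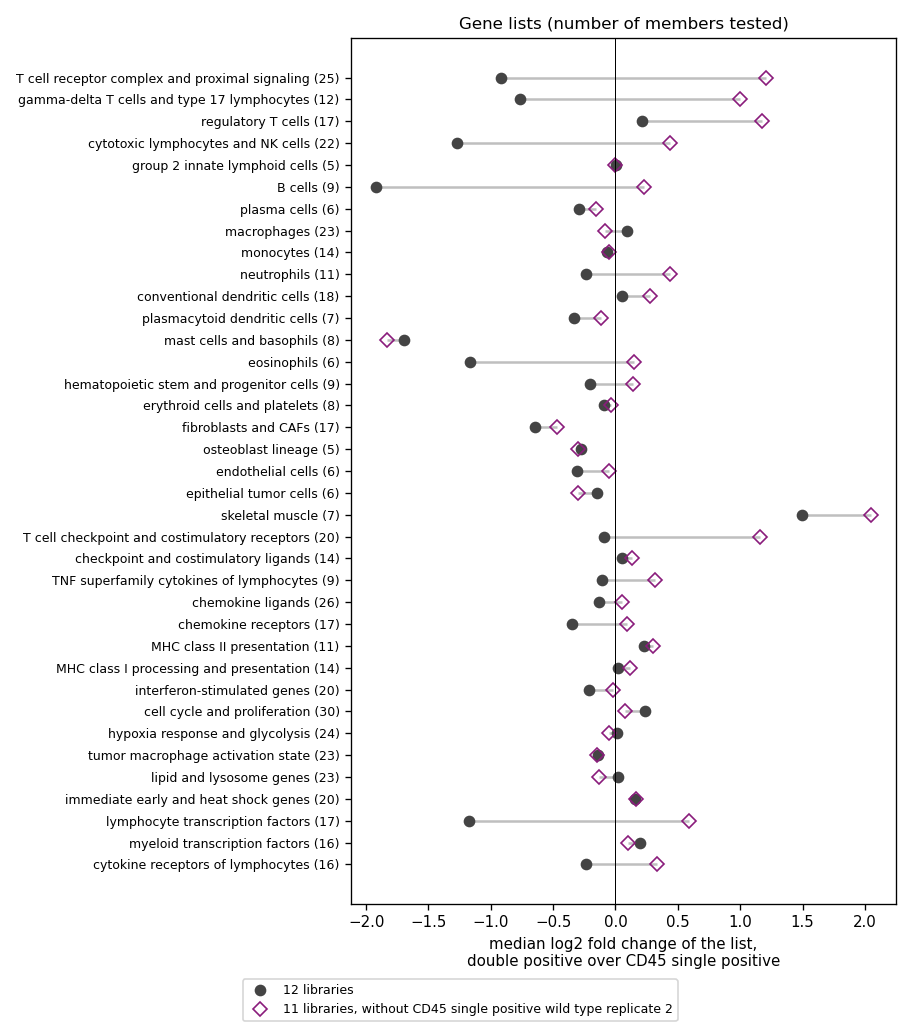
Median log2 fold change of double positive over CD45 single positive cells for each of 37 gene lists, with the number of members tested in parentheses, in 12 libraries (filled circles) and without CD45 single positive wild type replicate 2 (open diamonds). The medians moved from -0.92 to 1.21 for T cell receptor genes and from -1.92 to 0.23 for B cells, while macrophage and monocyte lists stayed near 0.

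Fibroblast and matrix genes had mostly negative differences, none of them called. Of 17 tested fibroblast genes 2 were positive in 12 libraries (median -0.65) and 4 without wild type replicate 2 (median -0.47). The median within each genotype was -0.50 in wild type and -0.73 in cKO. Within wild type without replicate 2 it was -0.18, with 6 of 17 positive. At an unadjusted edgeR p below 0.05, 5 were lower in 12 libraries, 4 without replicate 2 and 5 within cKO. Within wild type without replicate 2, 1 was higher and 0 lower. The shares of all genes tested at that p, in either direction, were 2.86%, 4.56%, 5% and 3.31% in the same order. Mmp3, a matrix metalloproteinase of activated fibroblasts, was at 3.75, 3.03 and 2.04 normalized CPM in wild type and 3.91, 3.88 and 7.90 in cKO double positive libraries. In CD45 single positive cells it was at 6.52, 9.25 and 3.20 in wild type and 11.6, 16.7 and 9.46 in cKO. Within cKO the 3 libraries of each population did not overlap, and within wild type they did. The share of all genes without overlap within cKO was not counted. The difference was -1.19 ± 0.29 log2 units (unadjusted p = 0.00142, edgeR adjusted p = 0.975), and -1.03 without wild type replicate 2.

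Other matrix genes lay in the same direction. Col3a1, a fibrillar collagen gene, was at 11.4 to 20.9 normalized CPM in double positive and 15.9 to 46.7 in CD45 single positive libraries. Sparc, a secreted collagen-binding protein gene, was at 55.0 to 136 and 65.9 to 219, with a difference of -0.65 ± 0.20. The proteoglycan gene Lum differed by -1.44, the microfibril gene Mfap5 by -1.04, the collagen crosslinking enzyme gene Lox by -1.71, the collagen chaperone gene Serpinh1 by -0.62 and Col1a1 by -0.49 log2 units. None was called with or without wild type replicate 2. Fn1, which macrophages also transcribe and which made up 87.0% of the list at the median library, differed by 0.23 ± 0.32. In the CD45- populations the same list summed to 12472 to 111460 normalized CPM, against 1309 to 4958 in CD45+ cells. Whether a carry-over of CD45- cells had a part in the differences was not tested.

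Muscle and mast cell genes were rare and uneven. Of 7 tested skeletal muscle genes 5 were positive (median 1.49). The gene of smallest p among them was Acta1, the sarcomeric actin, at 19.9, 1.46 and 5.47 normalized CPM in wild type and 2.11, 3.97 and 1.92 in cKO double positive cells against 0.722 to 2.01 in CD45 single positive cells. Xirp2, a muscle actin-binding protein gene, was above 1 normalized CPM only in double positive wild type replicates 1 and 3 (3.11 and 1.60). Tnnt3, a troponin of fast muscle, was at 0.617 to 6.44 and 0.513 to 1.44. The prohormone convertase gene Pcsk1, no muscle gene, was at 0.265 to 5.14 and 0.152 to 0.910 and completed the 5 genes of smallest p in this direction. Mast cell protease genes ran the other way, with Tpsb2 at 48.4 and 34.4 in wild type CD45 single positive replicates 1 and 2 and at or below 9.75 in the other 10 libraries. Its difference was -1.97 with and -1.85 without replicate 2. Cma1 and Cpa3 had the same 2 high libraries. None of these genes was called.

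**Figure D5:**
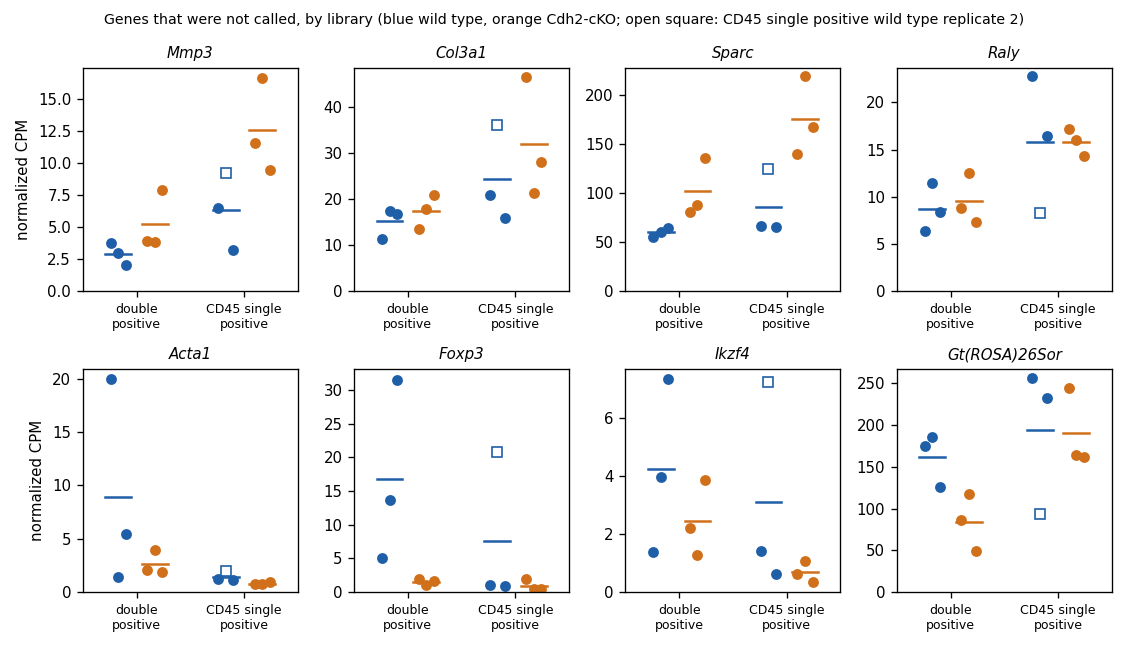
Normalized CPM of 8 genes in each of the 12 libraries, by population (horizontal axis) and genotype (blue wild type, orange Cdh2-cKO). Bars are group means and the open square is CD45 single positive wild type replicate 2. Mmp3, Col3a1 and Sparc lay mostly lower in double positive cells. Acta1 was highest in 2 wild type double positive libraries, and some cKO ones also exceeded every CD45 single positive library. Among double positive libraries Foxp3 was highest in the 3 wild type ones. No gene shown was called.

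The remaining genes of small p with a mean of at least 5 normalized CPM did not qualify as calls and had small differences. Higher in double positive cells were Fam71a (1.26 ± 0.43), the gene of the semaphorin Sema4a (0.62 ± 0.21), Gprin1 (0.63 ± 0.22), the coactivator gene Rbm14 (0.51 ± 0.18), the augmin subunit gene Haus4 (0.46 ± 0.16), the transport factor gene Preb (0.45 ± 0.15), the tRNA methyltransferase gene Trmt1 (0.41 ± 0.14) and the mitochondrial ribosome genes Mrpl38 (0.41 ± 0.14) and Mrpl37 (0.41 ± 0.14). Lower were the RNA-binding protein gene Raly (-0.79 ± 0.24), the zinc transporter gene Slc30a4 (-0.70 ± 0.22), the ubiquitin ligase adaptor gene Spopl (-0.63 ± 0.20) and the cytokine signaling suppressor gene Socs5 (-0.60 ± 0.18). All had an edgeR adjusted p of 0.975. Raly was at 6.37 to 12.6 normalized CPM in double positive libraries and at 14.3 to 22.8 in 5 CD45 single positive libraries, with 8.29 in wild type replicate 2. Without that library the 2 groups did not overlap, as was the case for 35 genes higher (0.271% of those tested) and 10 lower (0.0774%), and its difference was -0.92 (edgeR adjusted p = 0.898).

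The transcript of the reporter locus was looked at after the values were seen. Gt(ROSA)26Sor, the noncoding RNA of the locus into which Ai9 is inserted, was at 175, 186 and 126 normalized CPM in wild type and 87.0, 118 and 48.9 in cKO double positive libraries. In CD45 single positive cells it was at 257, 93.5 and 232 in wild type and 245, 165 and 162 in cKO. The difference was -0.72 ± 0.30 log2 units in 12 libraries and -0.92 without wild type replicate 2 (unadjusted p = 0.00107, edgeR adjusted p = 0.898), and it was not called.

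Xist and Ddx3y, transcripts of the inactive X and of the Y chromosome, differed among libraries of a group. Ddx3y was at 51.3 to 154 normalized CPM in 2 of 6 double positive and 2 of 6 CD45 single positive libraries and at or below 0.662 in the others, and Xist was at 3.07 to 10.2 in the former and 94.1 to 159 in the latter. Libraries with the same replicate number differed in this respect in 2 of 6 pairs of double positive and CD45 single positive libraries, so that in those pairs the number did not mark the same animal.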

How the data were processed

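RNA was amplified with Clontech SMARTer and sequenced as single-end reads. Per the labels and methods, the authors aligned reads with STAR 2.0.4b to GRCm38 and counted them per gene with featureCounts (version 1.45 in the labels). The deposited files hold raw counts per gene. The deposited CPM and RPKM values follow from those counts and the library totals and were not tested. RPKM printed here were recomputed from normalized CPM.

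Ribosomal RNA genes (355 IDs) were excluded. Genes with more than 1 CPM in at least 2 of 12 libraries were tested with edgeR 4.0.16 (TMM, quasi-likelihood test, genotype as covariate, Benjamini-Hochberg adjusted p of at most 0.05, no fold threshold). Each genotype and the difference of genotypes used a model with 1 mean per group. The CD45- comparison used all 22 libraries. limma 3.58.1 and DESeq2 1.42.0 were alternatives. Scripts were tested on simulated data.

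Named genes were the 10 largest called differences in each direction with non-overlapping libraries and a mean of at least 5 normalized CPM, filled up by smallest p, the 5 smallest p in each direction, the 3 smallest p of each test of a difference, list members and 18 preset genes. Members and lists were chosen with earlier results of these data known. Of the 37 lists, 2 symbols had no match. Symbols came from a mouse annotation later than the authors' and matched 40254 of 41388 IDs.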

Additional observations from a re-analysis of the deposited data

Results flagged for a closer look

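Mrps34 was picked out because its TdT difference in CD45+ cells differed from that in CD45- cells by -3.09 log2 units in the edgeR test of the difference itself. The 4 groups' levels are given above. The double negative libraries were the low group (0.256 to 1.75 normalized CPM), and the libraries of the other 3 populations lay between 4.36 and 11.5. The difference was called in all 12 fits that left out a CD45+ library, with a highest adjusted p of 0.0387. Groups here hold 2 or 3 libraries, and no check for single outlying CD45- libraries within a group was run for this gene.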

How the results depend on the processing

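The count of 1 gene higher and 0 lower with both genotypes was the same in each of these alternatives, taken singly: limma with quality weights, DESeq2, other scaling factors, other filters, no genotype term, a fold threshold, 1 mean per group, all 22 libraries, and each of the 12 libraries left out. Over the 21 fits of the 12 libraries by population, Duoxa2 differed by 3.03 to 3.47 log2 units, with adjusted p from 1.35e-18 to 0.0312. Where the model with 1 mean per group was combined with leaving out a library, the Duoxa2 adjusted p was over 0.05 without CD45 single positive wild type replicate 3 (0.0545), double positive cKO replicate 1 (0.0619) or CD45 single positive cKO replicate 1, 2 or 3 (0.103, 0.103 and 0.117), with differences of 3.20 to 3.33 log2 units. The count of genes higher in wild type, 0 in edgeR, was 1 with DESeq2 and 1 without a filter. The count in cKO, 0 in edgeR, was 1 with limma, 1 with DESeq2, 1 without a filter and 1 with the 6 cKO libraries alone, and 0 to 1 when a library was left out, with 1 without CD45 single positive wild type replicate 2. The difference between CD45+ and CD45- cells gave 19 genes higher and 27 lower with DESeq2, and 3 lower with limma (Mrps34, Creg1 and Cox5a). It gave 1 to 2 lower when a CD45+ library was left out, with Pigx as the second without CD45 single positive wild type replicate 2. The cause of these changes was not tested.

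Same-numbered libraries of the 2 populations had correlations of -0.351 to 0.469, over 0.1 in 2 of 6 pairs, and 2 of 6 double positive libraries correlated best with their own number, so the numbers were not taken as pairs. With the replicate block 1 gene was called, Duoxa2, at an adjusted p of 0.00253. Of 746 gene values under alternatives 26 changed sign and 0 changed their side of the threshold. With the replicate block these were Cd163l1 1.35, Ltb 1.08, Tcrg-C1 0.63, Cd3e 0.53, Cd4 0.58, Cd8a 0.48 and Lyz2 0.10. With limma they were Pigx -0.072, Ptprc 0.046, Cd163l1 3.24, Ltb 1.95, Tcrg-C1 2.32, Xist -0.64, Cd3e 1.66, Cd4 1.31, Cd8a 1.73, Ncr1 0.94, Adgre1 -0.002122 and C1qb -0.080. Without the genotype term they were Rbm38 -0.44, Cd163l1 0.29, Pdcd1 -0.22, Ctla4 -0.097 and Ddx3y -0.29. Pdcd1 was -0.006069 with the filter on 6 libraries and -0.014 with all 22 libraries.

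Leaving out 1 library at a time also turned the sign of some log2 differences, none of them called. The ranges were -0.045 to 0.19 for Fbrs, -1.61 to 2.42 for Apol7c, -0.13 to 0.72 for Rbm38, -0.069 to 0.21 for Pigx, -0.34 to 0.14 for Ptprc, -0.0029 to 0.44 for Runx2, -1.005 to 1.17 for Cd163l1, -0.50 to 1.5 for Ltb, -0.072 to 1.07 for Klrg1, -0.93 to 1.445 for Tcrg-C1, -0.23 to 1.46 for Pdcd1, -0.26 to 1.66 for Ctla4, -0.025 to 1.14 for Xist, -1.04 to 3.31 for Ddx3y, -1.25 to 1.404 for Cd3e, -0.83 to 1.32 for Cd4, -2.03 to 1.36 for Cd8a, -1.73 to 0.56 for Ncr1, -0.010 to 0.29 for Adgre1, -0.14 to 0.31 for C1qb, -0.27 to 0.29 for Lyz2, -0.50 to 0.016 for Spp1 and -0.056 to 0.22 for Lcp2.

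The 95% interval lay within 1 log2 unit of 0 for 75.8% of the genes tested and for 92.1% of those with a mean of at least 10 normalized CPM. The parts of depth and of the number of libraries in the width of the intervals were not tested.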
